A study of Mus musculus with 6 samples.

Results

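Natural killer (NK) cells were examined in B16-F10 melanomas of mice treated with αPD-1 or with αPD-1 + corin. They were selected on 3 NK receptor genes, Ncr1, Klrb1c and Klra8. A barcode had to hold at least 2 UMIs over these genes, at most 1 UMI over Cd3d, Cd3e and Cd3g, none of Cd8b1, none over Cd79a, Cd79b and Ms4a1 and at most 1 over C1qa, C1qb and C1qc. It also had to show 600 to 4000 genes and at most 10% mitochondrial UMIs. This left 393 NK barcodes, out of 30067 barcodes within the limits on genes and mitochondrial UMIs and 52899 in all. There were 58, 65 and 40 NK barcodes in αPD-1 replicates 1, 2 and 3 and 51, 59 and 120 in αPD-1 + corin replicates 1, 2 and 3.

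The series compares CD45+ cells of 3 samples with αPD-1 and 3 with αPD-1 + corin by droplet-based single-cell RNA-Seq from the 5′ end of transcripts. All tumors were grown from B16F10 cells in female C57BL/6 mice of 6 to 10 weeks, and mice of both groups were given 150 μg of anti–PD-1 (clone 29F.1A12) 3 times per week from day 7. The combination group also had 200 μg of corin, an inhibitor of the CoREST chromatin-repressor complex, injected daily from day 6, while the vehicle of corin was 5% DMSO in PBS. Each arm held 10 animals. Nothing in the labels ties a sample to its animals, so the p-values measure the spread between these samples, which may be technical. Tumors were dissociated, frozen, thawed, depleted of dead cells and enriched for CD45+ cells on beads before loading.

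NK cells are lymphocytes that kill infected or transformed cells without a rearranged antigen receptor. They weigh signals from activating receptors, which pair with adaptors such as DAP12, FcRγ and DAP10, against signals from inhibitory receptors that read MHC class I. They release perforin and granzymes, secrete IFN-γ and chemokines that draw in dendritic cells and T cells, and depend on IL-15 and on the transcription factors Eomes and T-bet. Tumor cells that lose MHC class I to escape T cells can still be targets of NK cells.

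Markers that the selection did not use fit the label. Of 12 such NK markers, at least 6 had a UMI in 345 of the 393 NK barcodes (87.8%), against 640 of 1996 gated CD8 T barcodes (32.1%), whose median depth was higher (4258 against 2294 UMIs). Gzma, which encodes the granule protease granzyme A, stood at 3831, 2129 and 2806 CPM (UMIs of a gene relative to all UMIs of the sum) with αPD-1 alone and at 1036, 1105 and 2699.9 CPM with corin, and at 5.47 to 101 CPM in CD8 T sums. CPM of NK cells were taken from UMIs summed over the NK barcodes of a sample and are TMM-scaled, while those of other cell classes are not TMM-scaled. Tyrobp (DAP12) and Fcer1g (FcRγ), the adaptors of activating receptors, were at 1512, 1898 and 1774 CPM and at 1442, 1475 and 1483 CPM, in this order, with αPD-1. Macrophage sums held Tyrobp at 1501 to 1938 CPM and Fcer1g at 2128 to 2593 CPM, so these adaptors do not tell NK cells from macrophages. Nkg7 and Prf1, also among the 12 markers, were at 1005 to 2142 CPM and at 85.2 to 598 CPM in CD8 T sums and overlapped with the NK sums. The T cell receptor gene Trac had 1 to 9 UMIs per NK sum, and its level in CD8 T sums was between 220 and 411 CPM. The plot of markers by cell class shows these levels in every sample.

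**Figure D1:**
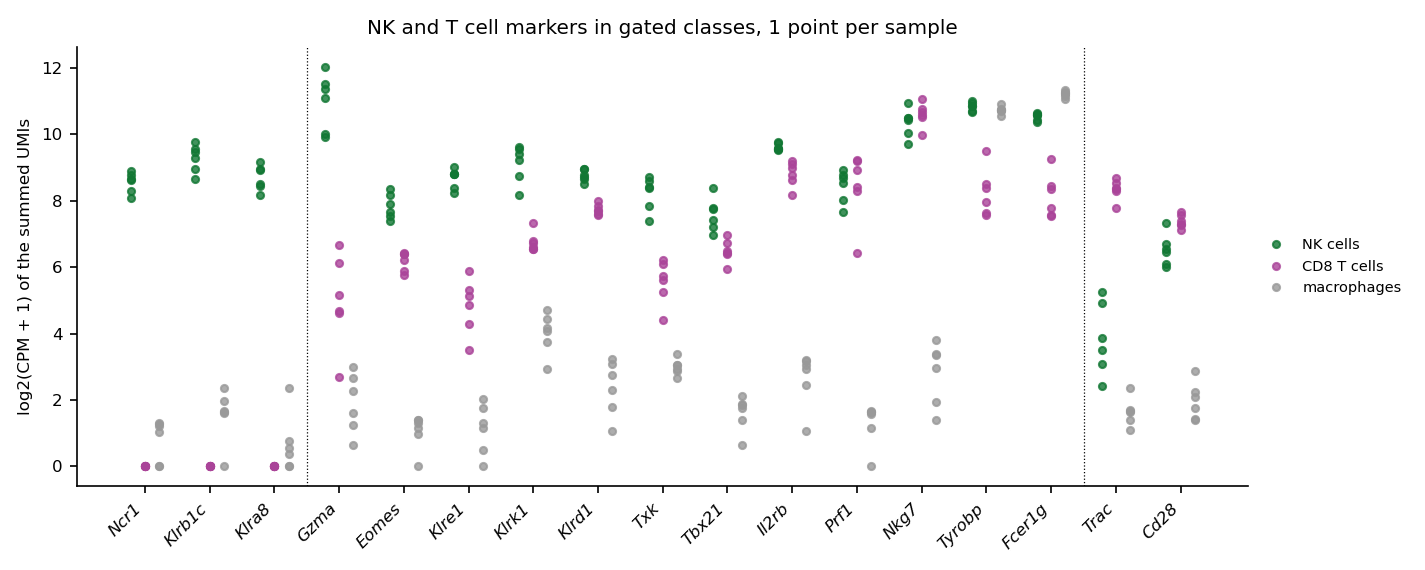
Level of NK markers and T cell markers as log2(CPM + 1) of the UMIs summed per sample, without TMM scaling, in NK cells (green), CD8 T cells (purple) and macrophages (grey), with 1 point per sample (3 αPD-1 and 3 αPD-1 + corin). The 3 genes left of the first dotted line chose the NK barcodes and the 2 right of the second mark T cells. Gzma, Eomes, Klre1, Klrk1, Klrd1 and Txk were higher in the NK sums than in the CD8 T and macrophage sums of all 6 samples. Prf1 and Nkg7 overlapped with the CD8 T sums, Tyrobp overlapped with the macrophage sums and Fcer1g was higher in the macrophage sums.

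The NK sums held 133086, 221342 and 95997 UMIs with αPD-1 alone and 161023, 230369 and 309095 UMIs with corin. No NK barcode sequence occurred in more than 1 library, against 299 sequences over all barcodes. Barcodes just inside the threshold, with 2 UMIs of the 3 receptor genes, numbered 129, and 77.5% of them had at least 6 of the 12 markers. The 151 barcodes just outside, with 1 UMI, reached this in 56.3%.

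RNA of other cell types differed between the groups within the NK barcodes. The 10 neutrophil markers summed to 283, 297 and 341 CPM with αPD-1 alone and to 7708, 18240 and 1365 CPM with corin. S100a8 and S100a9, which define neutrophils, had 0 UMIs in all 3 αPD-1 sums, and S100a9 stood at 2908, 7154 and 230.2 CPM with corin, at least 161-fold higher when 3 counts per αPD-1 library are taken as the limit. More than 1% neutrophil UMIs, counted over the 10 markers, was found in 7, 17 and 4 NK barcodes of the αPD-1 + corin samples and in 0 of the αPD-1 samples. The samples also held 2 to 4 gated neutrophils each with αPD-1 alone and 248, 529 and 27 with corin. Macrophage markers summed to 1574 to 4239 CPM in the αPD-1 samples and to 1723 to 2651 CPM in the αPD-1 + corin samples, and those of B and plasma cells to 1132 to 1736 and 1703 to 3273 CPM. Cd74 made up the most of the latter, and its level was highest in gated dendritic cells (16397 CPM). Ebf1 went the other way, with 17, 15 and 1 UMIs with αPD-1 alone and 0 with corin. Without the barcodes over 1% neutrophil UMIs, Bank1 was also lower without overlap (82.7, 36.1 and 20.8 CPM against 0, 6.09 and 0 CPM). The members other than Ebf1 and Bank1 overlapped there. The sums of T cell markers (283 to 571 CPM), dendritic cell markers (50.1 to 267 CPM) and fibroblast and endothelial markers (136 to 319 CPM) overlapped between the groups. Melanoma markers, at 62.1 to 100.2 CPM with αPD-1, reached 112 to 260 CPM with corin. Values without the NK barcodes over 1% neutrophil UMIs are given below for genes and lists that lose a call or the gap between the groups there.

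NK cells formed a small and variable share of the barcodes. Of the barcodes within the limits, they made up 1.30%, 1.73% and 0.904% with αPD-1 alone and 0.614%, 1.41% and 2.43% with corin. The lowest and the highest share thus both belonged to the combination group, in its replicates 1 and 3, whose 95% Wilson intervals were 0.467% to 0.806% and 2.04% to 2.90%, for counting error only. The means were 1.31% ± 0.412 and 1.49% ± 0.912 (SD, n = 3), and an exact two-sided permutation test gave p = 0.8, where 0.1 is the smallest p that 3 against 3 allow. Among gated T and NK barcodes the NK share was 14.0%, 13.9% and 12.1% with αPD-1 and 26.0%, 16.4% and 11.5% with corin (exact p = 0.5). The direction of the difference in the share of all kept barcodes (αPD-1 + corin minus αPD-1, 0.177 percentage points) turned to -0.0262 without αPD-1 replicate 3 and to -0.297 without αPD-1 + corin replicate 3. The median depth of NK barcodes was 1942.5, 2651 and 1890.5 UMIs with αPD-1 alone and 2609, 3356 and 2004.5 UMIs with corin (exact p = 0.3), as the plot of NK numbers by sample shows.

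**Figure D2:**
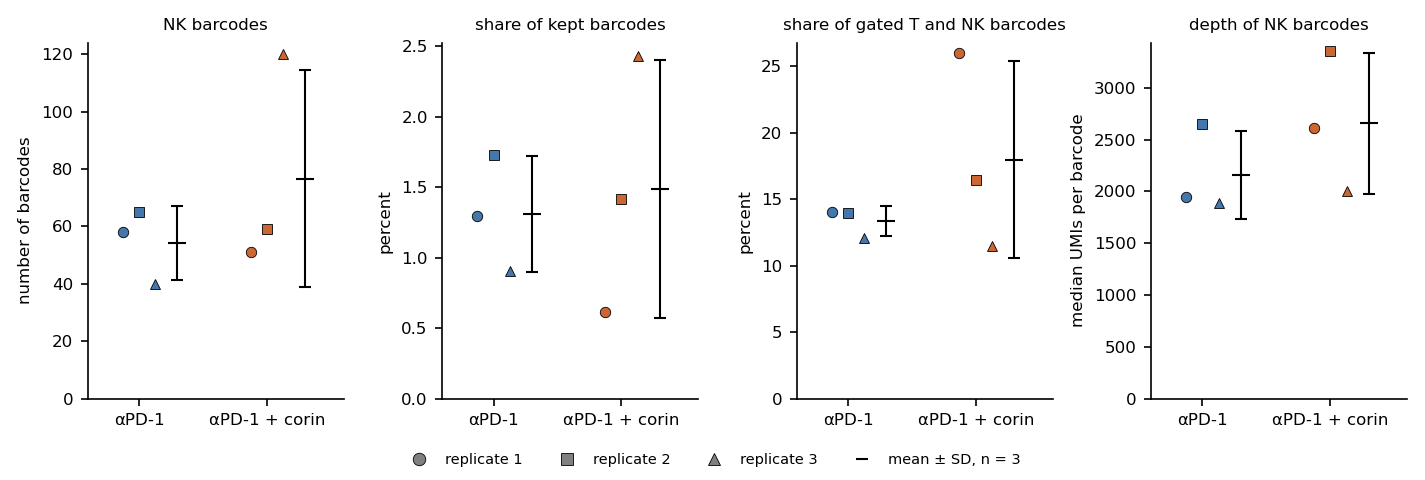
From left to right: number of NK barcodes, their percent of barcodes within the limits on genes and mitochondrial UMIs, their percent of gated T and NK barcodes, and their median UMIs per barcode, by sample (symbols are replicates 1 to 3) with the mean ± SD of 3 samples per group. The groups overlap in each panel, and αPD-1 + corin replicate 3 holds the most NK barcodes (120) but the lowest share of gated T and NK barcodes (11.5%).

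Summed per sample, 3387 genes could be tested, and 6 passed an adjusted p of 0.05 in the quasi-likelihood test of edgeR (0.177% of genes), 2 higher and 4 lower with corin. An unadjusted p under 0.05 was reached by 476 genes, 255 of them higher with corin. The median log2 fold change of all tested genes was 0.01, and -0.13 with library size alone as scaling, so that changes under that scaling are read against this shift. The number of calls depended on single libraries, with 2 calls without αPD-1 replicate 2 and 120 calls without αPD-1 + corin replicate 3. It was 0 when 3 UMIs of the NK receptor genes were required (352 genes at an unadjusted p under 0.05) and 0 when no Cd3 UMI was allowed (399 genes). DESeq2 called 17 genes from the same sums.

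The 4 genes that fell encode a potassium channel and 3 nuclear regulators. Kcnq5, a voltage-gated potassium channel gene at chr1:21468627-22032166 (minus strand; GRCm39 coordinates from GENCODE, matched by Ensembl ID), stood at 759, 593 and 431 CPM with αPD-1 alone and at 139, 262 and 299 CPM with corin, and the groups did not overlap. Its log2 fold change was -1.34 ± 0.26 (SE) with an adjusted p of 0.0374 in edgeR. The call was lost without αPD-1 replicate 1 (edgeR adjusted p = 0.110) and without αPD-1 replicate 2 (adjusted p = 0.126).

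Ikzf1, which encodes Ikaros, a zinc finger factor of lymphocyte development, lies at chr11:11634980-11723186 on the plus strand. It was at 525, 502 and 471 CPM with αPD-1 and at 332, 211 and 230.2 CPM with corin, so that the lowest αPD-1 sample stood above the highest combination sample. On the log2 scale the change was -0.999 ± 0.22 (SE) (edgeR adjusted p = 0.0464), and the call was lost without αPD-1 replicate 1, 2 or 3 (adjusted p = 0.181, 0.126 and 0.102) and without αPD-1 + corin replicate 2 (adjusted p = 0.114).

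Mllt3 (AF9), a reader of histone acylation in transcription elongation complexes at chr4:87687837-87951610 on the minus strand, was at 283, 218 and 210.4 CPM with αPD-1 and 99.6, 74.9 and 115 CPM with corin. Every combination sample was below every αPD-1 sample, and the log2 fold change came to -1.30 ± 0.27 (SE) (edgeR adjusted p = 0.0374). Only leaving out αPD-1 + corin replicate 3 kept the call among the single samples left out, and the other 5 gave adjusted p = 0.193, 0.0956 and 0.0552 without αPD-1 replicates 1 to 3 and 0.0527 and 0.0679 without αPD-1 + corin replicates 1 and 2. Foxn3, a forkhead factor that represses transcription, at chr12:99156337-99530218 on the minus strand, stood at 276, 175 and 240.5 CPM with αPD-1 and at 79.7, 93.6 and 98.7 CPM with corin. The log2 fold change was -1.31 ± 0.28 (SE) (edgeR adjusted p = 0.0374). Its adjusted p without αPD-1 replicates 1 to 3 was 0.200, 0.0956 and 0.102, and 0.0787 and 0.0509 without αPD-1 + corin replicates 1 and 2. All 4 genes passed again when NK barcodes over 1% neutrophil UMIs were left out. None of the 4 passed with at least 3 NK receptor UMIs (edgeR adjusted p = 0.106 to 0.184), with no Cd3 UMI (0.152 to 0.170), without counting Klra8 (0.0576 to 0.131) or without αPD-1 + corin replicates 1 and 2 together (0.0788 to 0.225). Ikzf1 also missed the threshold at a mitochondrial limit of 5% (adjusted p = 0.0565), as did Mllt3 with equal numbers of NK barcodes per sample (adjusted p = 0.0618). In CD8 T sums of the same samples Ikzf1 (376, 371 and 413 CPM with αPD-1, 159, 205 and 248 CPM with corin), Mllt3 and Foxn3 also fell (log2 fold changes -0.84, -0.74 and -0.80, edgeR adjusted p = 0.0241, 0.0409 and 0.0161), and Kcnq5 had a log2 fold change of -0.35 there (adjusted p = 0.342). Outside NK cells, gated B cells held the highest level of Kcnq5 (339 CPM), Ikzf1 (350 CPM) and Foxn3 (659 CPM), and gated CD4 T cells that of Mllt3 (227 CPM). The αPD-1 samples held 663, 628 and 969 gated B barcodes and the combination 73, 58 and 16. The part of B cell RNA in these falls was not tested.

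The next gene in this direction was Ccnd3, which encodes the G1 cyclin D3. It stood at 338, 410.1 and 521 CPM with αPD-1 and at 166, 225 and 233 CPM with corin, a log2 fold change of -1.003 ± 0.23 (SE) that missed the threshold (edgeR adjusted p = 0.0638). In CD8 T sums Ccnd3 fell as well, from 291, 298 and 278 CPM with αPD-1 to 148, 108 and 128 CPM with corin (log2 fold change -1.13, edgeR adjusted p = 0.00512). Its highest level outside NK cells, 408 CPM, was in gated B cells, and the part of their RNA was not tested.

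Both genes called on the higher side are abundant in other cells of the tumor. Cst3, which encodes the secreted protease inhibitor cystatin C, lies at chr2:148713635-148717887 on the minus strand. It was at 311, 615 and 491 CPM with αPD-1 and at 1029, 1690.1 and 1503 CPM with corin, and all combination samples were above all αPD-1 samples. The log2 fold change was 1.55 ± 0.24 (SE) (edgeR adjusted p = 0.00964), and the call held with any single sample left out, but in all it was lost in 6 of 21 alternatives. Its level in NK cells with corin was 10.9% of that in gated dendritic cells, and in CD8 T sums it had a log2 fold change of 1.37 (adjusted p = 0.299). Without the NK barcodes over 1% neutrophil UMIs the log2 fold change was 1.51, with an adjusted p of 0.241, and without an upper limit on genes it was 0.88 (adjusted p = 0.648). Cd63, a tetraspanin of endosomes and granules at chr10:128731528-128748709 on the plus strand, had 0, 1 and 0 UMIs with αPD-1 alone and 13, 14 and 18 UMIs with corin. It passed the filter on low counts only through the αPD-1 + corin samples, where it was high, so its place among the calls (edgeR adjusted p = 0.0271) is given as a description. The ratio of the groups was 31.9, with a counting interval of 5.44 to 1288. The NK level of Cd63 with corin was 4.71% of that in gated melanoma cells. The part of RNA from other cells in both genes was not tested.

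Among genes without overlap that reached 5% of the highest level in any other class, the lowest p-values on the higher side after Cst3 belonged to Ndrg1, Hmgb2, Dhx40 and H2-Ab1, none of which passed the threshold. Ndrg1, a gene that responds to hypoxia, was at 41.4, 26.2 and 20 CPM with αPD-1 and 186, 122 and 69.1 CPM with corin. It had 6, 6 and 2 UMIs with αPD-1 and 28, 26 and 21 UMIs with corin. Ndrg1 thus passed the filter on low counts only through the αPD-1 + corin samples, where it was high. Its edgeR adjusted p of 0.0638 is therefore given as a description. H2-Ab1, a chain of MHC class II, was at 276, 419 and 240.5 CPM with αPD-1 and 1195, 950.4 and 526 CPM with corin and reached 14.7% of its level in dendritic cells (adjusted p = 0.0909), but its samples overlapped without the barcodes over 1% neutrophil UMIs (adjusted p = 0.511). Dhx40, an RNA helicase gene, was at 75.9, 43.6 and 100.2 CPM with αPD-1 and 186, 272 and 122 CPM with corin (adjusted p = 0.0909), and its log2 fold change of 1.46 went to 0.30 without the barcodes over 1% neutrophil UMIs. The plot of named genes by sample gives these values together.

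**Figure D3:**
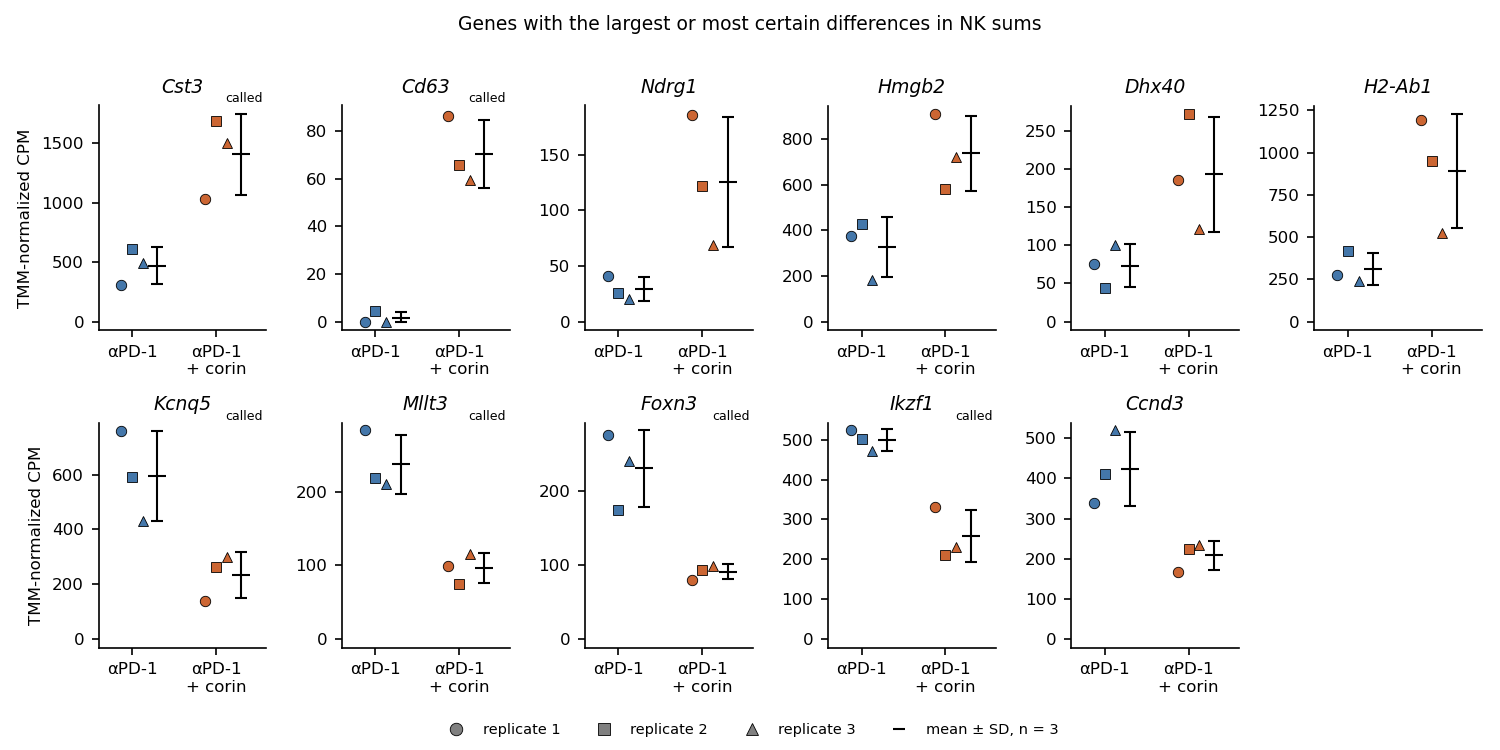
TMM-normalized CPM of 11 genes in the NK sums of each sample (symbols are replicates 1 to 3), with the mean ± SD of 3 samples per group; lower ends of bars stop at 0. Genes marked as called passed an adjusted p of 0.05 in edgeR, and no gene shown overlaps between the groups: Kcnq5 lies between 431 and 759 CPM with αPD-1 and between 139 and 299 CPM with αPD-1 + corin.

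Gene lists of NK functions are described next by their tested members. No member of any list passed the threshold. Over all genes tested, 10.7% were higher in every αPD-1 + corin sample than in any αPD-1 sample and 9.03% were lower in every one, and the counts below are read against these shares.

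Of the activating receptors, the genes of the selection are given as levels alone. Ncr1 (NKp46) was at 435, 388 and 421 CPM with αPD-1 and 285, 337 and 398 CPM with corin, Klrb1c (NK1.1) at 794, 676 and 721 CPM with αPD-1 and 432, 529 and 635 CPM with corin, and Klra8 (Ly49H) at 449, 554 and 351 CPM with αPD-1 and 372, 309 and 503 CPM with corin. Of the 13 other members tested, 2 were lower without overlap, 0 were higher without overlap, 5 had a log2 fold change above 0, and the median was -0.20. Klrk1, which encodes NKG2D, the receptor for stress-induced ligands, stood at 621, 755 and 721 CPM with αPD-1 and at 305, 459 and 602 CPM with corin. All combination samples were lower (log2 fold change -0.62 ± 0.22 (SE), edgeR adjusted p = 0.218). Cd244a, which encodes the SLAM family receptor 2B4, was the other one, at 138, 135 and 130.3 CPM with αPD-1 and 92.9, 65.5 and 88.8 CPM with corin (adjusted p = 0.261). The list median was 0.11 with αPD-1 + corin replicates 1 and 2 left out together, where αPD-1 + corin replicate 3 stood alone.

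Inhibitory receptors and signalling adaptors showed no common direction. Their medians were -0.01 over 11 inhibitory receptors and 0.05 over 15 adaptors and kinases. Klrd1 (CD94), the partner of the NKG2 receptors, was at 456, 479.9 and 351 CPM with αPD-1 and 432, 449 and 444 CPM with corin, and Klre1 at 407, 497 and 431 CPM with αPD-1 and 359, 323 and 457 CPM with corin, with overlap in both. Klra7 (Ly49G) was higher in all combination samples (214, 205 and 190.4 CPM with αPD-1 and 259, 229 and 299 CPM with corin) and Klri2 lower in all (186, 227 and 261 CPM with αPD-1 and 153, 126 and 148 CPM with corin), with adjusted p of 0.538 and 0.228. Among the kinases, Fyn, a Src family kinase downstream of activating receptors, was lower without overlap at 607, 371 and 561 CPM with αPD-1 and 279, 318 and 316 CPM with corin (adjusted p = 0.106). Sh2d1a, which encodes the SLAM adaptor SAP, was higher without overlap at 82.8, 118 and 70.1 CPM with αPD-1 and 173, 183 and 161 CPM with corin (adjusted p = 0.185). The adaptors Tyrobp and Fcer1g overlapped, with Tyrobp at 1965, 1812 and 2098 CPM and Fcer1g at 1467, 1419 and 1611 CPM with corin.

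Ly49 receptors, encoded by the Klra genes, are switched on in overlapping subsets of NK cells, so that single cells carry few of them. After thinning each barcode to 1000 UMIs, a Klra8 UMI was found in 33.3%, 35.9% and 23.7% of NK barcodes with αPD-1 and in 34.7%, 22% and 34.7% with corin. Klra8 is a gene of the selection. The next most detected were Klra4 (Ly49D, 13.6% to 28.6% over the 6 samples) and Klra7 (10.2% to 25.4%), and Klra9 ranged from 2.04% to 19.5%. The mean number of Klra genes other than Klra8 per NK barcode was 0.719, 0.734 and 0.553 with αPD-1 and 0.653, 0.424 and 0.890 with corin (exact p = 1). Reads shared between these near-identical genes make the values of single Klra genes uncertain.

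The killing machinery was expressed in both groups, with wide spread. For Gzma, replicates 1 and 2 of the combination were below all αPD-1 samples while replicate 3 lay within their range, and the log2 fold change of -0.86 ± 0.51 (SE) did not pass (edgeR adjusted p = 0.564). Thinned to 1000 UMIs per barcode, 70.2%, 60.9% and 50% of NK barcodes had a Gzma UMI with αPD-1 and 38.8%, 47.5% and 66.1% with corin (exact p = 0.4, 0.8 adjusted over 10 genes), against at most 0.362% of macrophages, whose median depth per sample was 3549.5 to 5490 UMIs. Gzmb (granzyme B) was at 704, 602 and 591 CPM with αPD-1 and 524, 281 and 687 CPM with corin, Prf1 (perforin) at 449, 419 and 251 CPM with αPD-1 and 398, 215 and 421 CPM with corin, and the granule membrane gene Nkg7 at 1801, 1331 and 1393 CPM with αPD-1 and 896, 1128 and 1457 CPM with corin, and the groups overlapped in all 3. Gzmb UMIs were found in 15.3% to 32.2% and Prf1 UMIs in 13.6% to 35.1% of thinned NK barcodes over the 6 samples (exact p = 0.9 and 0.6). Of the 13 members tested, Srgn alone did not overlap. Srgn encodes serglycin, the proteoglycan that packs granzymes, and stood at 1111, 1509.5 and 1102 CPM with αPD-1 and 1932, 3174 and 1687 CPM with corin (adjusted p = 0.106), but at 27.4% of its level in neutrophils. Without the barcodes over 1% neutrophil UMIs its samples overlapped and the log2 fold change went from 0.84 to 0.16.

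Secreted factors were led by the chemokine genes Ccl5, at 3651, 3089 and 4639 CPM with αPD-1 and 2364, 1910.2 and 5649.8 CPM with corin, and Xcl1, whose product attracts cross-presenting dendritic cells, at 1153, 1134 and 1253 CPM with αPD-1 and 1328, 1049 and 1052 CPM with corin. Both overlapped. Xcl1 varied little within either group, and its mean with αPD-1 alone was 711% of the level in CD8 T cells, the next highest class. Ifng was at 359, 205 and 581 CPM with αPD-1 and 193, 159 and 240.1 CPM with corin (edgeR adjusted p = 0.261), and a thinned Ifng UMI was present in 12.5% to 36.8% and in 18.4% to 22% of NK barcodes (exact p = 1). Ccl3 was higher in all combination samples at 664, 2275 and 766 CPM, against 248, 637 and 321 CPM. It was also abundant in neutrophils, and without the barcodes over 1% neutrophil UMIs its log2 fold change turned from 1.56 to -0.16. A thinned Ccl3 UMI was found in 15.8%, 25% and 18.4% of NK barcodes with αPD-1 and in 24.5%, 32.2% and 28.8% with corin (exact p = 0.2), against 19.5% to 41.5% of thinned macrophages over the 6 samples.

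Cytokine receptors and their signalling genes were listed together. Of the 18 tested, 6 were lower in every combination sample (Il12rb2, Il18r1, Tgfbr2, Jak3, Stat3 and Stat4), 0 were higher, and the median log2 fold change was -0.20, between -0.35 and -0.13 over all settings tried. Jak3, Stat3 and Stat4 are signalling genes, and Tgfbr2 encodes a chain of the receptor for TGF-β, which restrains NK cells. Il12rb2, a chain of the IL-12 receptor, stood at 166, 175 and 160.3 CPM with αPD-1 and 73, 89 and 155 CPM with corin. Stat4, which transmits IL-12 signals, was at 414, 332 and 331 CPM with αPD-1 and 226, 276 and 306 CPM with corin, and Il18r1, a chain of the IL-18 receptor, at 228, 275 and 210.4 CPM with αPD-1 and 79.7, 201 and 204 CPM with corin. The adjusted p of these genes lay at 0.334, 0.403 and 0.393. Il2rb, the chain shared by the IL-2 and IL-15 receptors, overlapped at 779.9, 733 and 742 CPM with αPD-1 and 929, 815 and 749.8 CPM with corin, as did Jak1 at 787, 929 and 852 CPM with αPD-1 and 704, 904 and 730.1 CPM with corin.

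Lineage transcription factors included 5 of 19 tested that were lower in every combination sample, 0 that were higher, and a median log2 fold change of -0.27. Tbx21 (T-bet), which drives NK maturation, stood at 304, 205 and 210.4 CPM with αPD-1 and at 133, 159 and 174 CPM with corin (log2 fold change -0.62 ± 0.25 (SE), adjusted p = 0.27). Tox, a factor of NK and T cell development, was at 387, 262 and 331 CPM with αPD-1 and 186, 220 and 132 CPM with corin (adjusted p = 0.103), and Ikzf3 (Aiolos), a relative of Ikaros, at 338, 257 and 190.4 CPM with αPD-1 and 139, 126 and 164 CPM with corin (adjusted p = 0.106). Bach2, a repressor that restrains effector genes, was at 483, 419 and 321 CPM with αPD-1 and 259, 253 and 247 CPM with corin. Klf2, which governs lymphocyte traffic, was at 552, 458 and 621 CPM with αPD-1 and 272, 440.1 and 444 CPM with corin. Eomes, the factor that marks NK cells among innate lymphocytes, overlapped at 262, 231 and 160.3 CPM with αPD-1 and 199, 215 and 332 CPM with corin, as did Id2 (1042, 1492 and 1062 CPM with αPD-1 and 923, 927 and 1187 CPM with corin) and Irf8 (476, 489 and 421 CPM with αPD-1 and 478, 524 and 499.9 CPM with corin). The list median was between -0.43 and -0.02 over the settings tried, and nearest to 0 with αPD-1 + corin replicates 1 and 2 left out together.

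Maturation of mouse NK cells runs from CD27+ to CD11b+ stages. Cd27 was lower without overlap, at 117, 113 and 130.3 CPM with αPD-1 and 46.5, 60.9 and 82.2 CPM with corin (log2 fold change -0.86 ± 0.32 (SE), edgeR adjusted p = 0.225). After thinning, a Cd27 UMI was found in 8.77%, 12.5% and 15.8% of NK barcodes with αPD-1 and in 4.08%, 5.08% and 8.47% with corin, and in at most 0.362% of macrophages. The exact p of this difference was 0.1, the smallest possible, and 0.5 adjusted over 10 genes. Leaving out the barcodes over 1% neutrophil UMIs kept Cd27 without overlap, with a log2 fold change of -0.79. Itgam, which encodes CD11b, was found in 8.77%, 4.69% and 2.63% of thinned NK barcodes with αPD-1 and in 18.4%, 18.6% and 9.32% with corin (exact p = 0.1, 0.5 adjusted over 10 genes). Thinned macrophages held it in 25.2% ± 0.484 and 36.5% ± 8.34 (SD, n = 3), also higher with corin without overlap. CD8 T barcodes held it in 2.36% ± 2.22 and 7.28% ± 5.40 (SD, n = 3). Without the barcodes over 1% neutrophil UMIs the log2 fold change of Itgam in the sums went from 0.90 to 0.26. The part of RNA from other cells in Itgam was not tested. Barcodes with a Cd27 UMI and no Itgam UMI made up 7.02%, 10.9% and 13.2% with αPD-1 and 4.08%, 5.08% and 6.78% with corin (exact p = 0.1, adjusted over 4 states 0.133). Of the 14 members of the maturation and trafficking list tested, 3 were higher (Emb, Cxcr4 and Ccr2) and 2 lower (Cd27 and Spn) without overlap. Emb and Cxcr4 overlapped without the barcodes over 1% neutrophil UMIs. The most abundant members of the list were Ctla2a, at 725, 689 and 481 CPM with αPD-1 and 538, 698 and 779 CPM with corin, and Emb, at 469, 576 and 461 CPM with αPD-1 and 651, 791 and 595 CPM with corin.

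Genes of tissue-resident NK cells and type 1 innate lymphoid cells overlapped in all 5 tested members, among them Rgs1 (545, 393 and 381 CPM with αPD-1 and 584, 398 and 398 CPM with corin) and Rgs2 (538, 476 and 371 CPM with αPD-1 and 332, 478 and 411 CPM with corin). Barcodes without an Eomes UMI but with one of Itga1, Cxcr6 or Tnfsf10 formed 12.3%, 9.38% and 5.26% of thinned NK barcodes with αPD-1 and 2.04%, 5.08% and 8.47% with corin (exact p = 0.2). Without thinning the groups did not overlap, with means of 14.2% ± 1.81 and 8.32% ± 4.04 (SD, n = 3).

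Cell cycle genes were the list with the clearest common direction. All 8 tested members had a log2 fold change above 0, 5 of them were higher in every combination sample, and the median was 1.07 (0.61 to 1.48 over the settings tried). Hmgb2, a chromatin protein abundant in dividing cells, stood at 373, 428 and 180.4 CPM with αPD-1 and 909.6, 581 and 720.2 CPM with corin (log2 fold change 1.10 ± 0.25 (SE), edgeR adjusted p = 0.0909). Top2a, the topoisomerase of replicating chromosomes, was at 75.9, 56.7 and 20 CPM with αPD-1 and 239, 93.6 and 168 CPM with corin (adjusted p = 0.0952) and passed the threshold without the barcodes over 1% neutrophil UMIs (log2 fold change 1.69, adjusted p = 0.0387). Stmn1, a microtubule regulator, had 0 UMIs in αPD-1 replicate 3 and stood at 62.1, 91.6 and 0 CPM with αPD-1 and 372, 103 and 210.5 CPM with corin. Tubb5, a tubulin, was at 235, 314 and 130.3 CPM with αPD-1 and 664, 318 and 385 CPM with corin, and Ube2c, which encodes the ubiquitin-conjugating enzyme of the anaphase-promoting complex, at 48.3, 17.5 and 0 CPM with αPD-1 and 199, 51.5 and 62.5 CPM with corin. Ube2c overlapped without the barcodes over 1% neutrophil UMIs, while Hmgb2, Top2a, Stmn1 and Tubb5 did not. Mki67 was not among the 5 members higher in every combination sample, and it also overlapped without those barcodes.

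Counted per cell, NK barcodes with at least 2 UMIs over Mki67, Top2a, Ccna2, Cdk1, Birc5 and Stmn1 after thinning made up 1.75%, 1.56% and 0% with αPD-1 and 16.3%, 3.39% and 8.47% with corin. In αPD-1 replicate 3 this was 0 of 38 barcodes, which allows a share of up to 7.89%. The thinned barcodes numbered 57, 64 and 38 with αPD-1 and 49, 59 and 118 with corin, so few barcodes lie behind these shares. The groups did not overlap (exact p = 0.1, adjusted over 4 states 0.133), and without thinning the means were 3.58% ± 1.41 and 14.46% ± 6.62 (SD, n = 3). The same score was reached by 12.4% ± 0.937 and 20.4% ± 1.63 of thinned CD8 T barcodes and by 7.23% ± 1.45 and 4.35% ± 1.70 of thinned macrophages, and the part of RNA from dividing neighbours in the score was not tested. Shallow barcodes left out by thinning numbered 4 in each group. Taken alone, a thinned UMI of Mki67 was found in 5.26%, 4.69% and 0% of NK barcodes with αPD-1. With corin it was found in 14.3%, 3.39% and 7.63%. For Mki67 the groups thus overlapped (exact p = 0.3, 0.75 adjusted over 10 genes).

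Of the glycolysis and hypoxia genes, 11 of 13 tested members had a log2 fold change above 0, 4 were higher without overlap and the median was 0.52. All 4 overlapped without the barcodes over 1% neutrophil UMIs. Pkm, which encodes pyruvate kinase, stood at 345, 484 and 281 CPM with αPD-1 and 704, 702 and 566 CPM with corin (log2 fold change 0.77 ± 0.22 (SE), edgeR adjusted p = 0.106). Pgk1, phosphoglycerate kinase, was at 166, 205 and 130.3 CPM with αPD-1 and 432, 318 and 286 CPM with corin (adjusted p = 0.0909), and Ldha, lactate dehydrogenase, at 352, 467 and 451 CPM with αPD-1 and 1129, 693 and 457 CPM with corin, with overlap. Gapdh and Tpi1 were the other 2 members without overlap. Of the 13, 7 had an unadjusted p under 0.05, and 2 had it without the barcodes over 1% neutrophil UMIs, where the list median was 0.43. Melanoma cells held the highest level of most of these genes, and NK levels with corin came to 30.7% of it for Pkm and 15.1% for Pgk1.

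Heat shock genes had the largest differences on the lower side in any list. Hspa1a, which encodes the inducible chaperone HSP70, stood at 1505, 1178 and 1182 CPM with αPD-1 and at 99.6, 103 and 576 CPM with corin. Replicates 1 and 2 of the combination were lowest, and replicate 3 lay between them and the αPD-1 samples (log2 fold change -2.25 ± 0.79 (SE), edgeR adjusted p = 0.338). Hspa1b, another HSP70 gene with nearly the same sequence, and Hsph1, a co-chaperone, were also lower in every combination sample. Hspa1b was at 1408, 1169 and 701 CPM with αPD-1 and 73, 93.6 and 497 CPM with corin, and Hsph1 at 579.8, 497 and 511 CPM with αPD-1 and 59.8, 89 and 299 CPM with corin. The split of reads between Hspa1a and Hspa1b is uncertain. In CD8 T sums Hspa1a was at 1113, 903 and 802 CPM with αPD-1 and at 197, 96.4 and 501 CPM with corin. The log2 fold changes of Hspa1a, Hspa1b and Hsph1 there were -1.74, -1.78 and -1.24 (edgeR adjusted p = 0.345, 0.386 and 0.441). The treatment difference of the 3 genes did not pass as unlike between NK and CD8 T cells (edgeR adjusted p = 0.528, 0.672 and 0.612). Jun and Jund, subunits of the immediate early factor AP-1, were lower in all (1649.5, 1653 and 1784 CPM with αPD-1 and 790.1, 1044 and 1608 CPM with corin for Jun, adjusted p = 0.225), while Fos (1684, 2002 and 1784 CPM with αPD-1 and 1759, 2266 and 2364 CPM with corin) and Junb (1525, 1907 and 1373 CPM with αPD-1 and 1434, 1980.4 and 1950.1 CPM with corin) overlapped. Nr4a3 and Dusp1 were higher without overlap, but both overlapped without the barcodes over 1% neutrophil UMIs. Hspa1a was highest in gated B cells, of which the αPD-1 samples held 663, 628 and 969 barcodes and the combination 73, 58 and 16; the part of their RNA was not tested. Of this list of 17, 5 members passed the threshold when αPD-1 + corin replicate 3 was left out.

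Of the 21 interferon-stimulated genes tested, 2 were higher (Isg15 and Bst2) and 3 lower (Stat2, Gbp4 and Ifi203) without overlap, near the shares over all genes, and the median was 0.04. Isg15 and Bst2 overlapped without the barcodes over 1% neutrophil UMIs. Ly6e was at 1028, 1160.5 and 1493 CPM with αPD-1 and 1248, 1147 and 1312 CPM with corin and the immunoproteasome subunit Psmb8 at 407, 441 and 331 CPM with αPD-1 and 511, 421 and 589 CPM with corin. Mt1, a metallothionein that binds zinc and copper, was higher in all combination samples, at 219, 103 and 158 against 41.4, 69.8 and 80.2 CPM (log2 fold change 1.28 ± 0.34 (SE), edgeR adjusted p = 0.103), with NK levels at 5.69% of those in fibroblasts. Dkkl1, listed with it, had too few UMIs to be tested (4, 6 and 1 with αPD-1, 3, 2 and 1 with corin). Among the subunits of the CoREST complex, which corin inhibits, 4 could be tested and all overlapped: Phf21a (152, 109 and 170.3 CPM with αPD-1 and 126, 154 and 112 CPM with corin), Hdac1 (96.6, 118 and 70.1 CPM with αPD-1 and 146, 89 and 141 CPM with corin), Rcor1, which encodes CoREST1 (75.9, 109 and 130.3 CPM with αPD-1 and 86.3, 117 and 118 CPM with corin), and Kdm1a, which encodes the demethylase LSD1 (62.1, 69.8 and 170.3 CPM with αPD-1 and 79.7, 56.2 and 65.8 CPM with corin). The plot of fold changes by list shows all tested members.

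**Figure D4:**
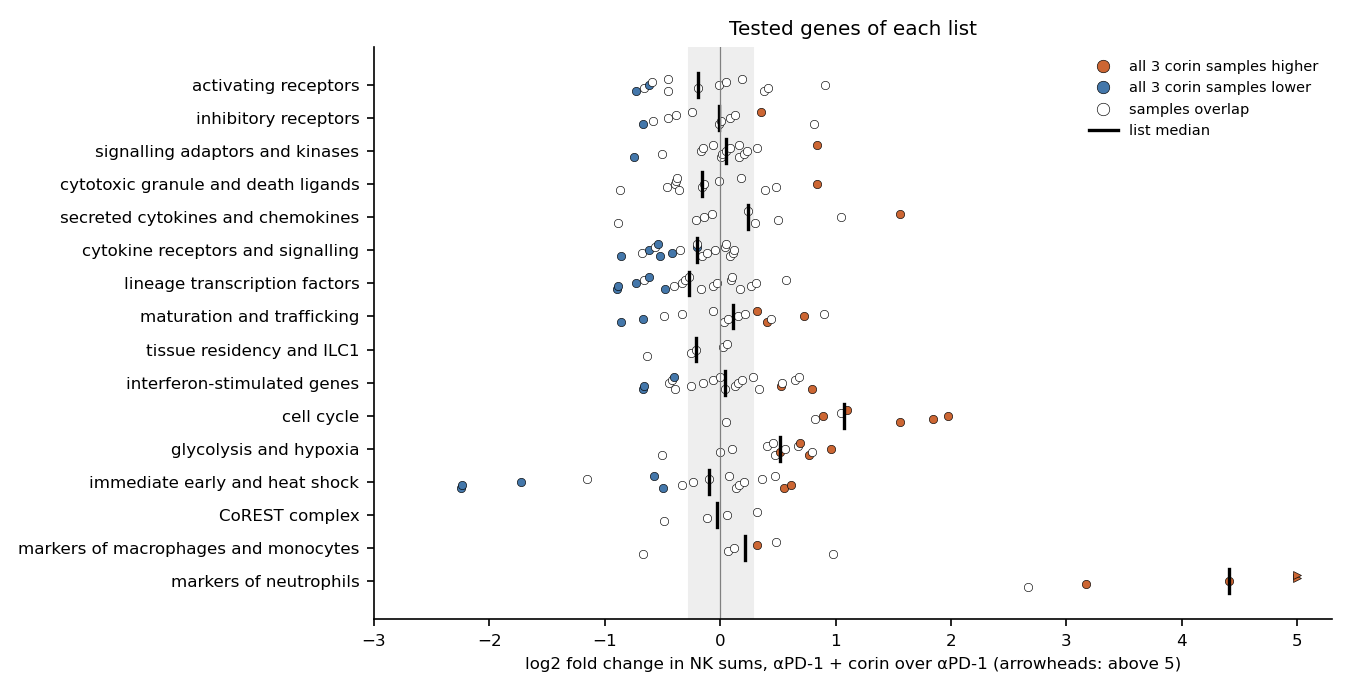
Log2 fold change (αPD-1 + corin over αPD-1) of the tested genes of each list in the NK sums, without the genes of the selection. Filled points did not overlap between the 3 samples of each group, black bars are list medians, the grey band holds the middle 50% of all 3387 tested genes, and arrowheads stand for S100a8 and S100a9, which had 0 UMIs with αPD-1; cell cycle members lie to the right of 0 (median 1.07) and Hspa1a, Hspa1b and Hsph1 farthest to the left.

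CD8 T cells, the other killer lymphocytes of these tumors, were used to ask whether differences between the treatments were larger in one class than the other. In a joint edgeR fit with the sample as a block, 13 of 6546 genes (0.199%) had a treatment difference in NK cells unlike that in CD8 T cells at an adjusted p under 0.05. Tcf7, which encodes TCF-1, a factor of early NK cells and of naive and memory T cells, was at 193, 166 and 160.3 CPM in NK cells with αPD-1 and 239, 243 and 181 CPM with corin. In CD8 T cells it was at 229, 162 and 129 CPM with αPD-1 and at 56.1, 52 and 35.6 CPM with corin. It fell in CD8 T cells (log2 fold change -1.87, adjusted p = 0.0118) and had a log2 fold change of 0.31 in NK cells (adjusted p = 0.644), a difference of 2.18 ± 0.29 (SE) with an adjusted p of 6.7e-06. The call held in each of the 6 fits with a sample left out.

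Sidt1, a transmembrane RNA transporter family gene, overlapped in NK cells (110.4, 78.5 and 150.3 CPM with αPD-1 and 66.4, 56.2 and 122 CPM with corin) and fell in CD8 T cells, where it was at 198, 132 and 157 CPM with αPD-1 and 31.4, 46.5 and 35.4 CPM with corin (log2 fold change -2.01, edgeR adjusted p = 0.00078). The difference between the classes was 1.72 ± 0.38 (SE) (adjusted p = 0.0287), and it was lost without αPD-1 replicate 1 (0.296) or 2 (0.227) and without αPD-1 + corin replicate 3 (0.551). Satb1, a chromatin organizer of lymphocytes, and Tsc22d3, a glucocorticoid target, are named after their values were seen. Satb1 was at 407, 262 and 421 CPM with αPD-1 and 186, 215 and 259.8 CPM with corin in NK cells and at 253, 185 and 163 CPM with αPD-1 and 35.9, 45.8 and 45.4 CPM with corin in CD8 T cells, lower in both and more so in CD8 T cells (adjusted p = 0.00267). Tsc22d3 was at 104, 131 and 140.3 CPM with αPD-1 and 159, 187 and 201 CPM with corin in NK cells and at 111, 135 and 117 CPM with αPD-1 and 65, 77.3 and 57.3 CPM with corin in CD8 T cells, in opposite directions (adjusted p = 0.0244 for the difference). In NK sums alone neither gene passed, with log2 fold changes of -0.69 for Satb1 and 0.55 for Tsc22d3 (edgeR adjusted p = 0.199 and 0.356). In CD8 T sums both fell (log2 fold changes -2.14 and -0.82, edgeR adjusted p = 0.00047 and 0.0360). Gated B cells held the highest level of both genes outside NK cells, and the part of their RNA was not tested.

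Itga5, the α5 chain of the fibronectin receptor, went the other way. In NK cells it was at 55.2, 61.1 and 60.1 CPM with αPD-1 and 19.9, 18.7 and 32.9 CPM with corin, and in CD8 T cells at 8.52, 8.87 and 8.75 CPM with αPD-1 and 98.7, 20.5 and 16 CPM with corin (adjusted p = 0.0289 for the difference). This call was lost in 5 of 6 fits with a sample left out, with adjusted p = 0.272, 0.268 and 0.077 without αPD-1 replicates 1 to 3 and 0.271 and 0.0627 without αPD-1 + corin replicates 1 and 2, and also without barcodes over 1% neutrophil UMIs (adjusted p = 0.137).

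The CD8 T barcodes include some with UMIs of Tcf7 or Lef1, genes of naive and memory T cells. When those were left out, a choice that uses Tcf7 itself and was made after seeing the data, 2 of 5753 genes passed, of which Ebf1 was 1 of the 13. The difference between the classes was then 0.20 for Tcf7 (edgeR adjusted p = 1) and 0.47 for Sidt1 (adjusted p = 0.915). The number of calls was 2 without αPD-1 replicate 1, 6 without αPD-1 replicate 2 and 8 without αPD-1 + corin replicate 2. Alone, the CD8 T sums gave 30 higher and 105 lower genes of 9067 at this threshold, with 1996 barcodes against 393. The plot of NK and CD8 T levels shows these genes side by side.

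**Figure D5:**
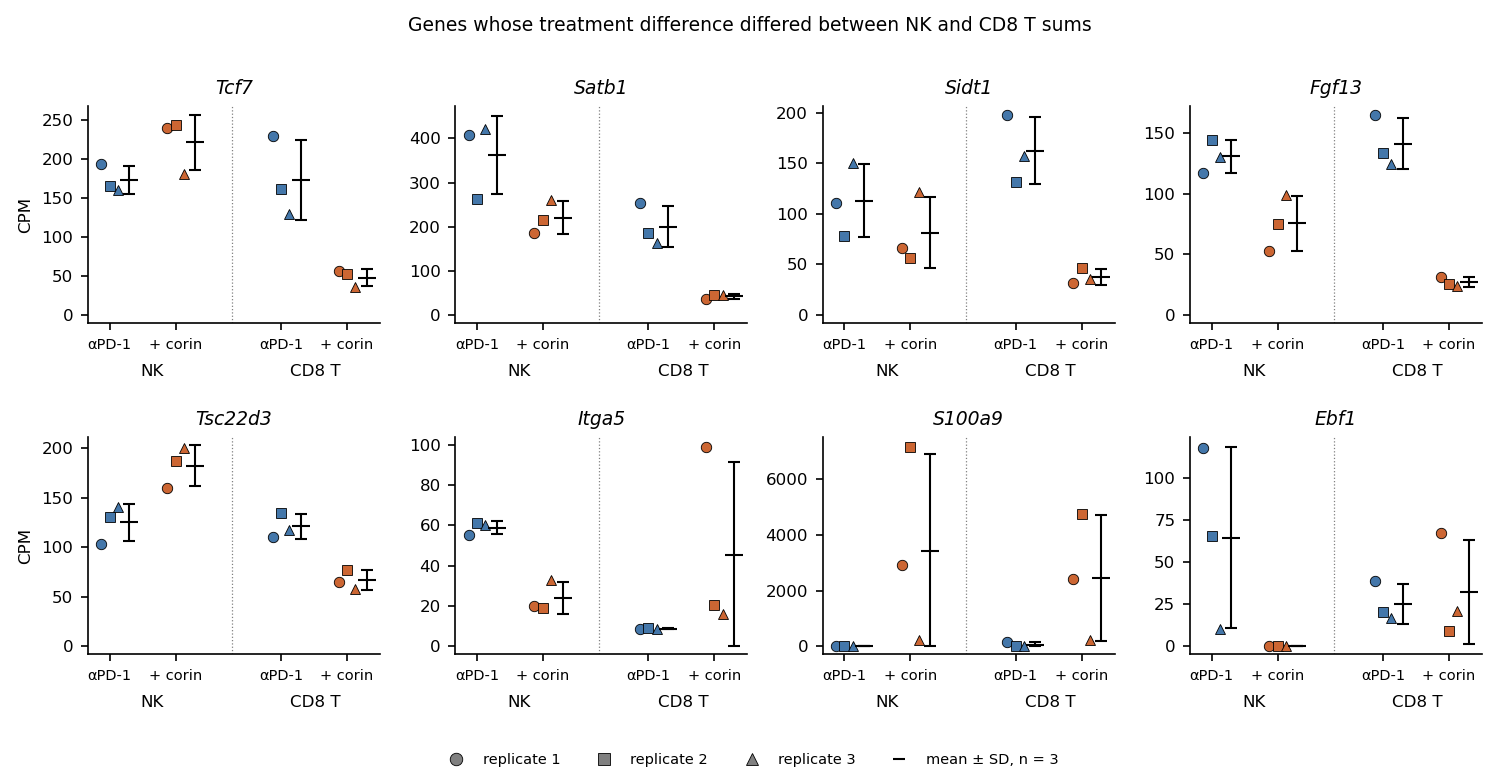
CPM of 8 genes whose treatment difference was not the same in NK and CD8 T sums (edgeR adjusted p under 0.05), by sample, with αPD-1 and αPD-1 + corin ("+ corin") for NK cells (TMM-normalized) at the left and CD8 T cells (not scaled) at the right of each panel, and the mean ± SD of 3 samples; lower ends of bars stop at 0. Tcf7 lies between 160.3 and 243 CPM in all NK sums and drops from 129 to 229 CPM to 35.6 to 56.1 CPM in CD8 T sums.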

How the data were processed

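Gene counts per barcode (UMIs) were deposited by the authors, who per the labels and file headers made them with Cell Ranger 8.0; the notes name GRCm39 as build, and the submitters' processing notes also name Seurat 5.0.11. The deposited counts are raw and cover 32285 features, of which 31674 matched GENCODE vM39 by Ensembl ID, and the lowest total of a barcode was 500 UMIs in every library. The members and gene lists were chosen with earlier results of these data known. Doublets were not removed, except in an alternative with Scrublet. UMIs were summed over the NK barcodes of each sample and tested with edgeR 4.0.16 (quasi-likelihood, TMM, filterByExpr, Benjamini-Hochberg over all tested genes, R 4.3.3). NK and CD8 T sums were compared in a joint edgeR fit with the sample as a block. CD8 T barcodes had at least 2 Cd3 UMIs, at least 1 of Cd8b1 and none of Ncr1, Klrb1c and Klra8. They also met the limits of the NK selection on B cell genes, C1q genes, gene number and mitochondrial UMIs. CD8 T cells with a UMI of these NK receptor genes were thus left out of the comparison. For shares of barcodes, an exact permutation test (two-sided) was run over the samples (scipy 1.17.1), after thinning each barcode to 1000 UMIs where a UMI or a score was counted. DESeq2 1.42.0 served as an alternative, and 1 other definition of the CD8 T class that was tried is not reported here. No overlap means that every sample of one group lay above every sample of the other.

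The genes named are the 5 of lowest p in each direction among those without overlap, with at least 50 CPM and at least 5% of the highest level in another gated class, up to 3 below that level, the 2 most abundant members of each list and, against CD8 T cells, the 5 largest and 5 smallest differences past the threshold. Other list members were named after their values were seen. Of 340 listed genes 336 were found under their symbols, and the others were not analysed here. On simulated NK sums with 200 changed genes, edgeR found 47 changed 2-fold (3526 genes tested, 0 false calls) and 165 changed 4-fold (3442 genes tested, 8 false calls). The joint fit of NK and CD8 T sums found 1 changed 2-fold (6563 genes tested, 0 false calls) and 139 changed 4-fold (6574 genes tested, 7 false calls). The simulation gave all genes the same dispersion and added no RNA of other cells, which the real sums need not share.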

Additional observations from a re-analysis of the deposited data

Results flagged for a closer look

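The treatment difference in NK cells was unlike that in CD8 T cells, by the interaction term of edgeR, for the following genes, which met the level required for naming. Tcf7 had an adjusted p of 6.72e-06 and Sidt1 of 0.0287, both lower with corin in CD8 T cells.

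S100a9 (adjusted p = 1.06e-05) and S100a8 (adjusted p = 0.0123), neutrophil genes, had 0 UMIs in the NK sums with αPD-1 alone. They passed the filter on low counts only through the αPD-1 + corin sums, where they were high, so these adjusted p are given as a description. Neutrophil UMIs are counted over markers that include both genes. Leaving out barcodes over 1% neutrophil UMIs thus lowers both by construction and cannot test them. Their adjusted p were then 0.987 and 0.961, and without αPD-1 replicate 1 they were 0.988 and 0.976. Slfn1, a growth regulator gene of lymphocytes and myeloid cells, had an adjusted p of 0.0228 with 3, 0 and 2 UMIs with αPD-1 alone and 14, 36 and 9 with corin, and its highest level in another class, 639 CPM, was in neutrophils. Without barcodes over 1% neutrophil UMIs its adjusted p was 0.461, without αPD-1 replicates 1 and 2 it was 0.0659 and 0.315, and without αPD-1 + corin replicate 2 it was 0.248.

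Ebf1, a B cell factor (adjusted p = 0.000387), had 17, 15 and 1 UMIs in NK sums with αPD-1 alone and 0 with corin, at least 4.40-fold lower when 3 counts per library are taken as the limit. Its level in gated B cells was 1790.2 CPM, and the adjusted p was 0.0612 without αPD-1 replicate 1. Itga5 had an adjusted p of 0.0289, with NK levels lower in every combination sample and CD8 T levels higher in every one. With 3 samples per group, no check for single samples far from their group was made.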

How the results depend on the processing

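NK numbers limit these results: 40 to 120 barcodes per sample. Differences are αPD-1 + corin minus αPD-1, in percentage points for shares. The NK share turned to -0.0309 with at least 3 receptor UMIs, -0.0681 over all deposited barcodes and -0.0141 without barcodes over 1% neutrophil UMIs, and ranged from -0.297 to 0.613 with a sample left out. Shares of barcodes with a UMI turned without thinning for Gzma (0.321) and Gzmb (0.730; 1.61 at 1500 UMIs). With a sample left out they ranged from -4.42 to 4.05 for Gzmb (0.754 without αPD-1 replicate 1), -8.80 to 0.947 for Prf1, -6.38 to 5.79 for Ifng and -3.15 to 6.60 for Eomes (-1.80 without αPD-1 replicate 3), and median genes from -51.9 to 153 (-4 without αPD-1 replicate 3). None of these passed the exact test, but with 3 samples per group its smallest p is 0.1, so none could have passed 0.05.

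Against 6 genes called in NK sums, 0 were called with at least 3 receptor UMIs, 0 with no Cd3 UMI, 1 without counting Klra8 (which shared 0 of the 6), 12 with no upper limit on genes, 29 with 40 barcodes per sample, 17 by DESeq2, 17 with library size alone, 135 with no filter on low counts (14450 genes tested), 2 to 120 with a sample left out and 17 without αPD-1 + corin replicates 1 and 2, an alternative added after seeing the data, as was leaving out barcodes over 1% neutrophil UMIs (8 genes). With the replicate block 109 were called, but same-numbered samples did not deviate together (correlations of -0.0676, -0.0951 and -0.0145). This gives no sign that the numbers pair the samples. Sums of 40 to 120 barcodes could hide a shared deviation, so the check cannot exclude pairing. Against 13 genes for NK and CD8 T cells, 2 passed with CD8 T barcodes without Tcf7 or Lef1 UMIs (an alternative also added after seeing the data) and 2 to 19 with a sample left out (6 without αPD-1 replicate 2, 8 without αPD-1 + corin replicate 2). The cause of these shifts was not tested. Of the genes named by p-value or against CD8 T cells, none turned its direction in the alternatives run, while the list member Ccl3 did without barcodes over 1% neutrophil UMIs (-0.16), and other list members were not followed through every alternative.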
